A study of Mus musculus with 10 samples.

Results

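The collagen genes of the mouse lower incisor were followed here on 10 expression arrays, 5 of denervated incisors and 5 of the opposite side. A gene counted as a member if its symbol in the array annotation reads Col, a number, a and a number, on probe sets that name 1 gene, and where a gene had several probe sets the brightest on average stood for it. This gave 42 of the 18193 genes measured, from 82 probe sets. They were grouped by class as 11 fibrillar collagens, 8 of basement membranes, 9 fibril-associated collagens with interrupted triple helices (FACIT), and 14 others.

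Wild-type C57BL/6J mice had a piece of the inferior alveolar nerve, which carries sensation from the lower teeth, removed on 1 side. At postnatal day 60, 2 weeks after that surgery, total RNA was extracted from incisor mesenchyme of the operated side (denervated, 5 arrays) and of the other side (contralateral, 5 arrays). The series text gives 5 mice, and arrays of equal number are called mouse 1 to mouse 5, since their deviations from the group means correlated in all 5 pairs. The animals' sex was not determined per the labels, and the samples include no sham operation, which means that nerve loss and surgery cannot be told apart. Every contralateral incisor came from an operated mouse.

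The values are log2 expression levels, with array medians between 1.48 and 1.54 and a highest value of 13.21. The number of arrays limits the precision. Levels of different probe sets depend on their probes and are not set against each other. A mean below 2 is called low, and 40.8% of all genes had one. The labelled tissue was checked against markers. The odontoblast gene Dspp, which encodes the main non-collagen proteins of dentin, had a mean of 12.16, and the 3 collagen markers Col1a1, Col1a2 and Col3a1 had 13.02, 12.67 and 11.61. Genes of the enamel-forming epithelium were also detected in this tissue labelled mesenchyme, with Ambn at 12.69. Denervated arrays 2 and 3 stood apart in several marker lists. The lists are given beside some of the results, and whether they move together was not tested. In bulk RNA, fewer cells of a type and less RNA per cell cannot be told apart.

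Collagens are secreted proteins in which 3 chains wind into a triple helix. Fibrillar collagens assemble into the fibrils of dentin, bone and soft connective tissue, type IV forms the network of basement membranes under epithelia and around vessels, and FACIT collagens sit on the surface of fibrils. Odontoblasts secrete a type I collagen matrix that later mineralizes into dentin, while the pulp core also holds type III collagen. In the continuously growing incisor this matrix is laid down throughout life.

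Collagen transcripts covered nearly the whole scale. Of the 42 genes 28 had a mean of 4 or more and 7 a mean below 2. The fibrillar class had 9 of its 11 members at 4 or more and 0 below 2. In the basement membrane class these counts were 4 and 2 of 8, in the FACIT class 5 and 1 of 9, and among the others 10 and 4 of 14. The 7 low members were Col4a3 and Col4a4, chains known from kidney and inner ear basement membranes, Col19a1, Col6a4, Col6a5, the transmembrane Col13a1, and Col10a1, the collagen of hypertrophic cartilage. Col10a1 lay between 0.46 and 0.71 on every array.

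**Figure D1:**
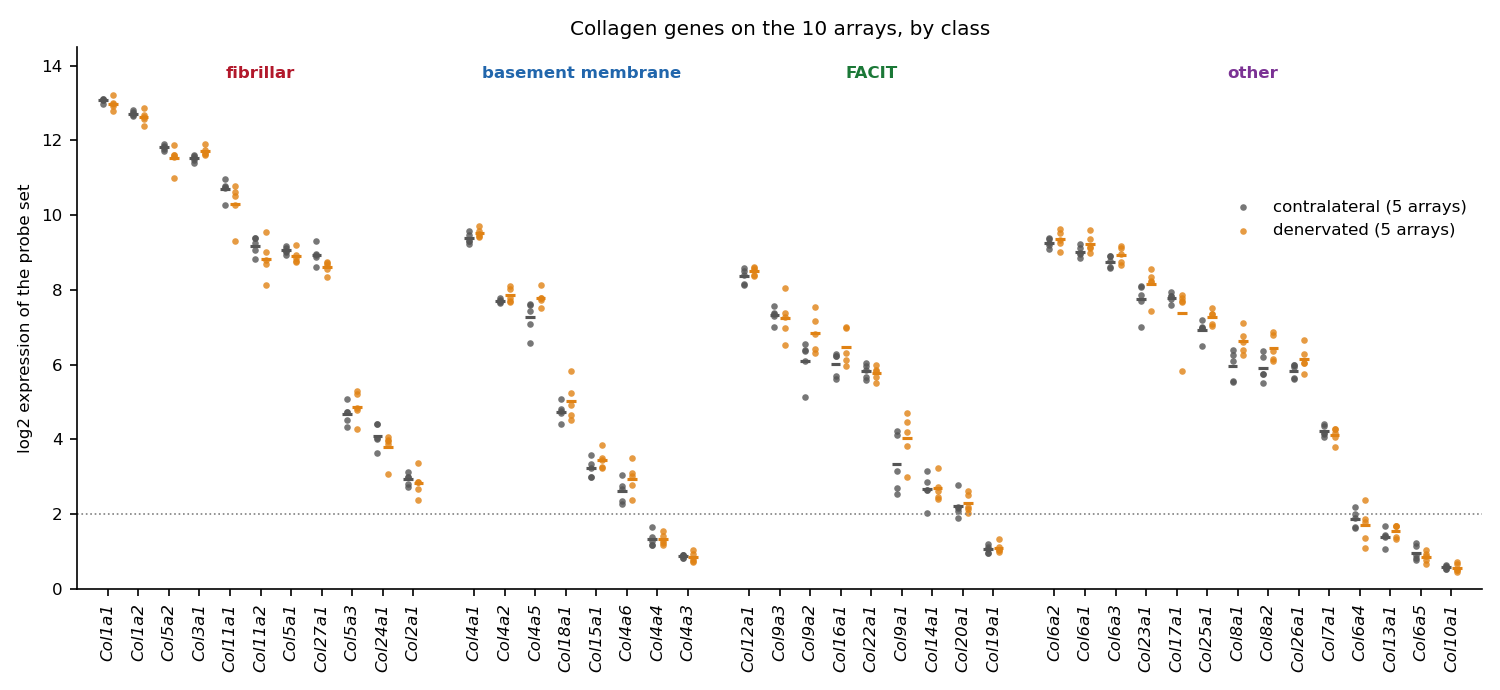
Log2 level of each collagen gene (vertical axis) on the 5 contralateral (grey) and 5 denervated (orange) arrays, by class and then by mean level, with short lines for the group means and a dotted line at 2. The groups overlap in all 42 genes, and the largest gap of a point from its group is that of Col17a1 in denervated array 3.

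The comparison of the sides asked which collagen transcripts differ after nerve resection. In the denervated incisors 9 of 11 fibrillar genes had a lower mean, type I, V, XI, XXIV and XXVII chains among them, with a class median of -0.16 on the log2 scale. In the basement membrane class 6 of 8 genes had a higher mean, with a median of 0.19. The FACIT class had 7 of 9 higher with a median of 0.08, and the other collagens 9 of 14 higher with a median of 0.17. Over all 42 genes 24 were higher and 18 lower with a median of 0.09, where the median over all 18193 genes was 0.02 and 55.8% were higher. Every difference given is the denervated value minus the contralateral one, in log2 units. These class medians are descriptions without a test. Without denervated array 2 the basement membrane median was 0.10, the FACIT median 0.03 and the median of all 42 genes 0.05. Without denervated arrays 2 and 3 the medians were -0.17 for the fibrillar class, 0.06 for basement membranes, 0.12 for FACIT, 0.06 for the others and 0.04 for all 42. Without both incisors of mice 2 and 3 the median of the others was 0.04 and that of all 42 was 0.02.

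No collagen gene passed the test. With limma and Benjamini-Hochberg adjustment over all 18193 genes, 0 of 42 members and 0% of all genes had an adjusted p under 0.05, without the mouse in the fit (smallest adjusted p among members 0.790) and with each mouse as a block, called the blocked fit (0.326). At an unadjusted p under 0.05 there were 7 members, or 16.7%, against 6.21% of all genes. Of these 6 were higher, where 4.1% of all genes were, and 1 was lower, where 2.11% were. In the blocked fit there were 11 members, or 26.2%, against 9.92% of all genes: 8 higher (6.99% of all genes) and 3 lower (2.93%). The count without the block was 4 without denervated array 2 and 11 without denervated array 5, against 889 and 1605 of all 18193 genes. It was 4 without denervated arrays 2 and 3 and 0 without both incisors of mice 2 and 3. The counts over all genes also fell there, from 1129 with all arrays to 856 and 559. Of all genes at this p 746 were higher and 383 lower, and the split was 523 and 499 after quantile normalization and 453 and 743 with the arrays at a common median.

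In all 5 mice 7 of 42 members were higher, against 6.58% of all genes, and 3 were lower, against 3.8%. The 7 were Col3a1, Col4a5, Col4a6, Col9a2, Col8a1, Col23a1 and Col26a1, and the 3 were Col27a1, Col5a2 and Col11a1. The groups overlapped in all 42 members. Among all genes, 0.528% lay without overlap on the higher side and 0.423% on the lower side.

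**Figure D2:**
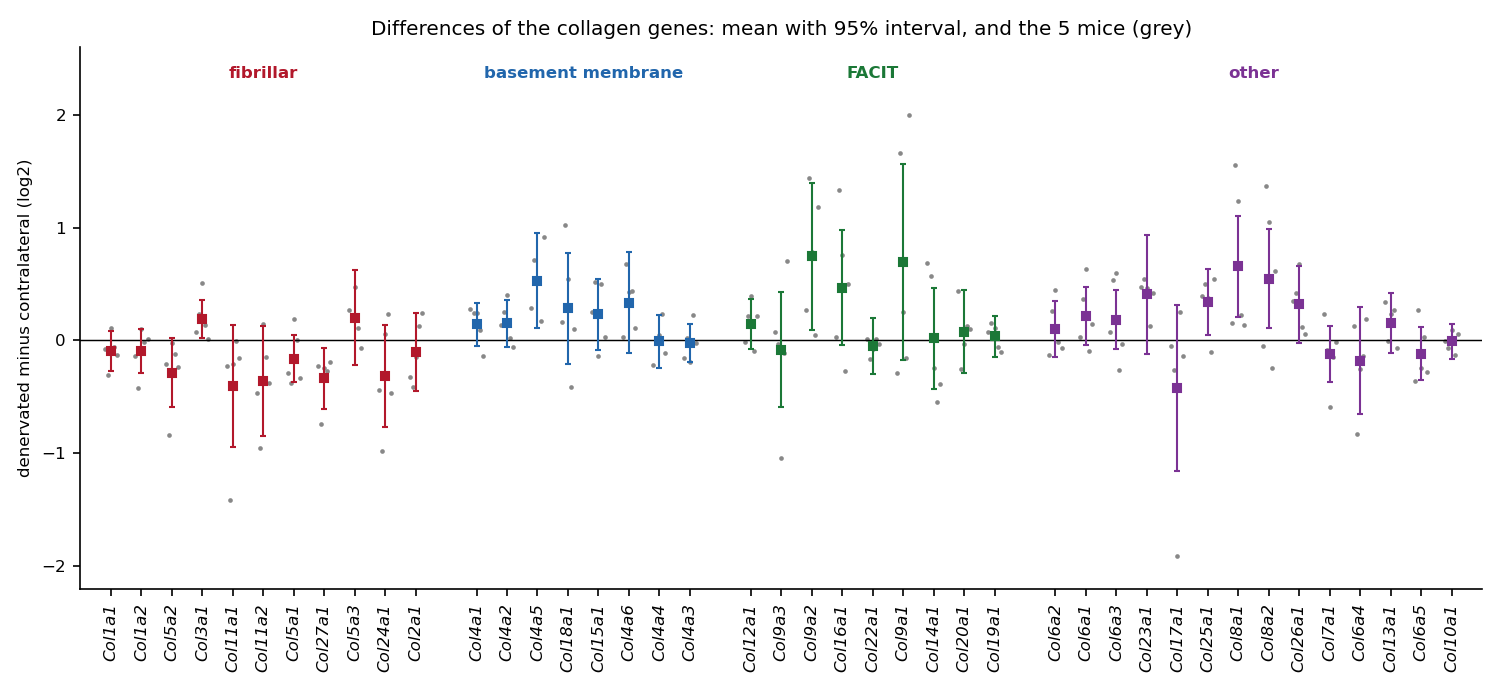
Denervated minus contralateral difference (log2, vertical axis) of each collagen gene, as the mean with limma's 95% interval of the fit without the mouse (coloured squares and bars) and the 5 within-mouse values (grey points). Most fibrillar genes lie below 0 and most type IV, VIII and FACIT genes above it, with intervals that include 0 in all but 7 of the 42 genes.

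Type I collagen, the main fibril protein of dentin, is built from 2 chains of Col1a1 and 1 of Col1a2. Col1a1 had log2 levels of 13.00, 12.79, 13.21, 12.92 and 12.96 in denervated arrays 1 to 5 and 13.08, 13.10, 13.10, 12.98 and 13.09 in contralateral arrays 1 to 5. Denervated array 3 was the highest of the 10 and denervated array 2 the lowest, so the denervated values spanned the contralateral ones. The means were 12.98 ± 0.15 against 13.07 ± 0.05 (SD, n = 5), a difference of -0.09 ± 0.08 (SE) with a 95% interval of -0.27 to 0.08. These levels lie at the top of the scale, where differences can be compressed.

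Col1a2 read 12.58, 12.38, 12.86, 12.62 and 12.69 in the denervated and 12.72, 12.80, 12.76, 12.64 and 12.67 in the contralateral arrays. Again denervated array 2 was lowest and array 3 highest. The difference was -0.09 ± 0.09 (interval -0.28 to 0.10). Without denervated array 2 the differences of Col1a1 and Col1a2 were -0.04 and -0.03, and without denervated array 3 they were -0.15 and -0.15. A weakly hybridizing probe set of Col1a2, with a mean of 2.64, gave 0.40, while the other 2 gave -0.09 and -0.17.

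Col3a1, the fibril collagen of soft and vascular connective tissue, had the higher mean in the denervated incisors. Its levels were 11.65, 11.75, 11.91, 11.60 and 11.63 in the denervated and 11.58, 11.52, 11.40, 11.47 and 11.62 in the contralateral incisors. All but 1 of the contralateral values lay below every denervated value, and contralateral array 5, at 11.62, lay just above the lowest denervated one. The means were 11.71 ± 0.13 against 11.52 ± 0.09 (SD, n = 5), a difference of 0.19 ± 0.08 with an interval of 0.02 to 0.36, or -0.01 to 0.39 in the blocked fit. Its second probe set gave 0.29. Within the mice the differences were 0.07, 0.23, 0.51, 0.14 and 0.01, largest in mouse 3, and without denervated arrays 2 and 3 the difference was 0.11.

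The minor fibril collagens of types V and XI join type I fibrils and limit their width. Col5a2 read 11.57, 10.98, 11.88, 11.60 and 11.61 in the denervated and 11.78, 11.82, 11.90, 11.72 and 11.85 in the contralateral arrays. Denervated array 2 stood lowest, denervated array 3 lay among the contralateral values, and every mouse had the lower value on the denervated side. The difference was -0.29 ± 0.14 (interval -0.59 to 0.02, or -0.56 to -0.01 in the blocked fit), and -0.15 without denervated array 2. Col5a1 differed by -0.16 ± 0.09, with all 3 probe sets below 0. Col5a3, a chain of restricted expression, differed by 0.20 ± 0.19, higher in 4 of 5 mice, but by -0.05 without denervated arrays 2 and 3.

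Type XI is best known from cartilage. Col11a1 had levels of 10.52, 9.32, 10.77, 10.28 and 10.63 in the denervated and 10.74, 10.73, 10.98, 10.28 and 10.78 in the contralateral incisors. Denervated array 2 was by far the lowest, and the other 4 denervated arrays overlapped the contralateral ones. The within-mouse differences were -0.22, -1.42, -0.21, -0.01 and -0.15, and the mean difference was -0.40 ± 0.25, or -0.15 without denervated array 2. Col11a2 read 8.79, 8.12, 9.54, 8.68 and 9.00 against 9.26, 9.07, 9.39, 8.83 and 9.38, lower in 4 of 5 mice. Its difference was -0.36 ± 0.22, with an interval of -0.85 to 0.13 that narrowed to -0.69 to -0.03 in the blocked fit, and -0.18 without denervated array 2.

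Col27a1, a fibrillar collagen found in developing cartilage and teeth, was the 1 member lower at an unadjusted p under 0.05 in both fits. Its levels were 8.66, 8.55, 8.73, 8.35 and 8.74 in the denervated and 8.89, 9.30, 8.97, 8.62 and 8.94 in the contralateral arrays. The contralateral array 4, at 8.62, fell within the denervated range, and the other 4 contralateral arrays lay above all denervated ones. The means were 8.61 ± 0.16 against 8.94 ± 0.24 (SD, n = 5), a difference of -0.33 ± 0.12 with an interval of -0.60 to -0.07, or -0.56 to -0.11 in the blocked fit. Within the mice it was -0.23, -0.74, -0.24, -0.27 and -0.19, so mouse 2 differed most and the other 4 by similar amounts. Both probe sets had this direction, and without mice 2 and 3 the difference was -0.23. Col24a1, a fibrillar collagen of bone, differed by -0.32 ± 0.21 around a mean of 3.94, or -0.14 without denervated array 2, and Col2a1, the main collagen of cartilage, by -0.10 ± 0.16 around 2.88.

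The fibrillar class had within-mouse medians of -0.22, -0.42, 0.10, -0.01 and -0.15 in mice 1 to 5. Mouse 2 was lowest and mouse 3 was the 1 mouse above 0. The summed level of 5 odontoblast markers, as log2 of the sum of linear values, differed by -0.10, -0.85, -0.06, -0.24 and 0.08 in the same mice, and ranged from 12.62 to 13.46 in the denervated and 13.32 to 13.49 in the contralateral incisors. Of these markers 1 of 5 had a higher mean, and Dmp1, a phosphoprotein gene of odontoblasts and bone cells, differed by -2.55 in mouse 2. The part of the odontoblast markers in the fibrillar differences was not tested. The 9 genes of the class with a lower mean had the same direction after quantile normalization. Setting the arrays to a common median lowered every difference by the same amount, so it could not turn these genes. Col1a2 and Col2a1 did turn under other settings, Col1a2 to 0.0485 with the mean of probe sets and Col2a1 to 0.0090 without denervated array 2.

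The promoter sequences of 3 fibrillar members are shown because their differences ran in both directions: Col1a2 and Col27a1 were lower on average and Col3a1 higher. They are the 250 bases before the annotated start, 5′ to 3′ on the gene's own strand, from RefSeq on build GRCm38.p6, at chr6:4505368-4505617 (+), chr1:45311288-45311537 (+) and chr4:63215162-63215411 (+). Capitals mark matches, on either strand, to 3 common promoter motifs: the CCAAT box, the TATA box written as TATAAA, and the GC box GGGCGG bound by Sp1 proteins.
Col1a2: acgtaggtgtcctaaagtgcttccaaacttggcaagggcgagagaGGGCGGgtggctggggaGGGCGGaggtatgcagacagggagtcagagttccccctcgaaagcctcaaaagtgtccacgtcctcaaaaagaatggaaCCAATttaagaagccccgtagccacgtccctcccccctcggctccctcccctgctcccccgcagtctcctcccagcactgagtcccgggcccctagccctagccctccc
Col3a1: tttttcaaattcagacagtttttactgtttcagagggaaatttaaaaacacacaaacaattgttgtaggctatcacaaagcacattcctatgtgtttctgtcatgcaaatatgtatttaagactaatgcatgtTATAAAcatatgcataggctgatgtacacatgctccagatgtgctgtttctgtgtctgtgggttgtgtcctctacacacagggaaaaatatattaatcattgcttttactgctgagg
Col27a1: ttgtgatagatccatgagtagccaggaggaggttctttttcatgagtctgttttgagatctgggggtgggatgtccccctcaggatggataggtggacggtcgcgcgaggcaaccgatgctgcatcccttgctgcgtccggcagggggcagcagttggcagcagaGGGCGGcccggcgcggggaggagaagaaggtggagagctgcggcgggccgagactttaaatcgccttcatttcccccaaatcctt
Col1a2 held 1 CCAAT box and 2 GC boxes, Col3a1 held 1 TATAAA match 117 bases before the start and no GC box, and Col27a1 held 1 GC box. Of the 42 members 33 had a RefSeq window, 36 windows in all. Col1a1, Col2a1, Col5a2, Col4a3, Col12a1, Col14a1, Col22a1, Col9a3 and Col26a1 had no entry. CCAAT was found in 13 of the 36 windows (36.1%) and in 33.8% of the 32851 windows of all genes, TATAAA in 5 (13.9%) and 12.4%, and GGGCGG in 21 (58.3%) and 32.7%. No match to 1 of the motifs overlaps a match to another in the windows printed, and a match is a description of the letters, not a binding site.

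In the basement membrane class the 6 genes with a higher mean were Col4a1, Col4a2, Col4a5, Col4a6, Col15a1 and Col18a1. The 2 chains of the common type IV trimer, Col4a1 and Col4a2, are transcribed in opposite directions from neighbouring starts on chromosome 8. Col4a1 had means of 9.52 ± 0.12 against 9.38 ± 0.14 (SD, n = 5) and Col4a2 of 7.85 ± 0.20 against 7.70 ± 0.05. Their differences were 0.14 ± 0.09 and 0.15 ± 0.09, each higher in 4 of 5 mice, with mouse 5 at -0.14 and -0.06. Without denervated arrays 2 and 3 they were 0.07 and 0.01.

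Col4a5 encodes a chain of the specialised type IV networks and is the gene of X-linked Alport syndrome, a kidney and hearing disorder. Its levels were 7.73, 7.80, 8.13, 7.78 and 7.51 in the denervated and 7.44, 7.08, 7.59, 7.61 and 6.59 in the contralateral incisors. Contralateral arrays 2 and 5 were low, and contralateral arrays 3 and 4 lay above the lowest denervated array. The means were 7.79 ± 0.22 against 7.26 ± 0.43 (SD, n = 5), a difference of 0.53 ± 0.19 with an interval of 0.11 to 0.95, or 0.26 to 0.80 in the blocked fit. All 5 mice were above 0, at 0.29, 0.71, 0.55, 0.17 and 0.92, and mouse 5 differed most. A second probe set gave 0.58, and without denervated arrays 2 and 3 the difference was 0.41.

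Col4a6, which neighbours Col4a5 on the X chromosome and is transcribed away from it, had a mean of 2.78. Its levels were 2.77, 3.02, 3.09, 3.49 and 2.37 in the denervated and 2.74, 2.35, 2.66, 3.05 and 2.26 in the contralateral arrays. The ranges overlapped widely, while the within-mouse differences of 0.03, 0.67, 0.43, 0.43 and 0.11 were all above 0. The mean difference was 0.34 ± 0.20, with intervals of -0.11 to 0.79 without and 0.10 to 0.58 in the blocked fit, and it was 0.20 without denervated array 4. Col4a3 and Col4a4 differed by -0.03 ± 0.08 and -0.01 ± 0.11 at low levels, and Col4a4 was above 0 after quantile normalization.

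The starts of Col4a5 and Col4a6 lie 1343 bases apart in RefSeq on GRCm38.p6. The 250 bases before each start are shown for this pair of neighbours, which had differences of the same sign in every mouse: chrX:141475169-141475418 (+) and chrX:141474077-141474326 (-), with capitals as above.
Col4a5: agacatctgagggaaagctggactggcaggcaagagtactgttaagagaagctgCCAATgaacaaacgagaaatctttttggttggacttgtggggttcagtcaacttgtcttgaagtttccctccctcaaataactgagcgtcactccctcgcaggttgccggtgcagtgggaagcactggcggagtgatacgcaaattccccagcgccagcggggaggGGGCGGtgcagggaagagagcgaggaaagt
Col4a6: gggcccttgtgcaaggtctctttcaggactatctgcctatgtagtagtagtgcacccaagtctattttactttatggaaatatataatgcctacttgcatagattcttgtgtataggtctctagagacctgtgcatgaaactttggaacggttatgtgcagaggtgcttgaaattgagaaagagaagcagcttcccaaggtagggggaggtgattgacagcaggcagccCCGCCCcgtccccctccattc
Each holds 1 GC box close to the start, 30 and 21 bases before it, and Col4a5 also holds 1 CCAAT box. Neither window holds TATAAA.

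The multiplexins Col15a1 and Col18a1 belong to basement membrane zones of vessels and epithelia, and the end of the type XVIII chain is released as endostatin. Col15a1 differed by 0.23 ± 0.14 and Col18a1 by 0.28 ± 0.22, each higher in 4 of 5 mice, and by 0.13 and 0.09 without denervated array 2. Col18a1 differed by 1.02 in mouse 2 and -0.42 in mouse 4, and by -0.05 without denervated arrays 2 and 3. The basement membrane class had within-mouse medians of 0.15, 0.38, 0.32, 0.20 and 0.00.

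FACIT collagens decorate the surface of fibrils. Type IX, the FACIT of cartilage, gave the widest spread of the class. Col9a2 had levels of 6.83, 7.54, 7.18, 6.42 and 6.31 in the denervated and 6.56, 6.10, 6.39, 6.37 and 5.13 in the contralateral incisors. Contralateral array 5 was lowest and denervated arrays 2 and 3 highest. The means were 6.86 ± 0.51 against 6.11 ± 0.57 (SD, n = 5), a difference of 0.75 ± 0.30 with an interval of 0.10 to 1.40, or 0.29 to 1.21 in the blocked fit. The mice differed by 0.27, 1.44, 0.78, 0.05 and 1.18, from close to 0 in mouse 4 to more than 1 in mice 2 and 5.

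Col9a1 read 3.82, 4.19, 4.46, 2.99 and 4.70 in the denervated and 4.11, 2.53, 4.21, 3.15 and 2.70 in the contralateral arrays. Contralateral arrays 2 and 5 were the lowest of the 10, and the mice differed by -0.29, 1.66, 0.25, -0.16 and 2.00. The mean difference was 0.69 ± 0.39 (interval -0.17 to 1.56), and a second, dimmer probe set gave -0.13. Col9a3 differed by -0.08 ± 0.23, with -1.04 in mouse 3 and 0.70 in mouse 5. Col9a1 and Col9a2 were both more than 1 higher in mice 2 and 5, while Col9a3 was not above 0 in mouse 2.

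Of 8 chondrocyte markers 6 had a higher mean, and their summed level ranged from 8.04 to 8.40 in the denervated and 7.60 to 8.45 in the contralateral incisors. By mouse it differed by 0.09, 0.52, 0.11, -0.14 and 0.17. Acan, Matn1, Matn3, Snorc and Comp, which define cartilage, had means below 2. Sox9 and Hapln1, with means of 7.10 and 6.68, made up most of the summed level. Cnmd, the chondromodulin gene, differed by 0.17, 2.07, -0.86, -0.83 and 1.41 in mice 1 to 5, above 0 in 3 and below 0 in mice 3 and 4. The part of these markers in the type IX differences was not tested.

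Among the other FACIT genes, Col16a1 differed by 0.47 ± 0.23, higher in 4 of 5 mice, with 1.33 and 0.76 in mice 2 and 3 and 0.12 without those denervated arrays. Col12a1, a collagen of ligaments and tissues under load, differed by 0.14 ± 0.10. The second brightest of its 4 probe sets, with a mean of 5.12, gave -0.05. The remaining ones, with low means of 0.96 and 0.92, both gave 0.01. Of 5 tendon and ligament markers 3 had a higher mean. Mkx, Aspn and Tnmd differed by 0.43, 0.60 and 0.07, and Postn and Scx by -0.14 and -0.06. The summed level of the 5 differed by -0.20, -0.60, 0.12, -0.15 and 0.29 in mice 1 to 5. It is carried by Postn, with a mean of 10.46, where the others had means of 5.72 or less. The part of these markers in the Col12a1 difference was not tested. Col22a1 differed by -0.05 ± 0.11, with 2 of 3 probe sets above 0. Col14a1, Col20a1 and Col19a1 had means of 2.68, 2.26 and 1.08 and differences of 0.02 ± 0.20, 0.08 ± 0.17 and 0.04 ± 0.08. Col14a1 was below 0 after quantile normalization, and Col14a1 and Col19a1 were below 0 with the arrays at a common median.

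Type VIII is a short-chain network collagen of vessel walls and of the membrane behind the cornea. Col8a1 had levels of 6.26, 7.10, 6.77, 6.61 and 6.39 in the denervated and 6.10, 5.55, 5.54, 6.39 and 6.26 in the contralateral incisors. Contralateral arrays 2 and 3 were the lowest and denervated arrays 2 and 3 the highest of the 10. The means were 6.63 ± 0.33 against 5.97 ± 0.40 (SD, n = 5), a difference of 0.66 ± 0.20 with an interval of 0.21 to 1.11. Its unadjusted p of 0.00782 was the smallest of the family without the block. Its mice differed by 0.16, 1.55, 1.23, 0.22 and 0.13. A second probe set gave 0.65 and the remaining one, with a low mean, -0.06.

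Col8a2, the partner chain, read 6.15, 6.87, 6.80, 6.11 and 6.35 in the denervated and 6.20, 5.50, 5.75, 6.35 and 5.74 in the contralateral arrays. Mice 2 and 3 again differed most, at 1.37 and 1.05, and mice 1 and 4 lay at -0.05 and -0.25. The difference was 0.55 ± 0.20 (interval 0.11 to 0.98). Without both incisors of mice 2 and 3 the differences of Col8a1 and Col8a2 were 0.17 and 0.10.

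The 2 type VIII genes lie on different chromosomes. Their promoter windows are shown for comparison because both genes differed most in mice 2 and 3, at chr16:57754738-57754987 (-) and chr4:126286544-126286793 (+), with capitals as above.
Col8a1: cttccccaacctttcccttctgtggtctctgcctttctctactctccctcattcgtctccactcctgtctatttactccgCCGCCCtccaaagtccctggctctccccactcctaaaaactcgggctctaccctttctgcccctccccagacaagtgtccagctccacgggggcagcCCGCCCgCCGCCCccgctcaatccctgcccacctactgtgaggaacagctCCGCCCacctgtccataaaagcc
Col8a2: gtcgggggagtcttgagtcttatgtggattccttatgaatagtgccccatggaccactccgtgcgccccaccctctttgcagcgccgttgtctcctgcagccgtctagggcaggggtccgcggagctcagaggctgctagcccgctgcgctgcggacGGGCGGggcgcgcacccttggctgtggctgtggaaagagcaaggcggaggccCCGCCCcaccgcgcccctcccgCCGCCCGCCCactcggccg
Each window holds 4 GC boxes and no CCAAT or TATAAA, and 2 of the GC box matches of Col8a2 overlap each other.

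Type VI forms beaded microfibrils around cells. Its 3 classical chains, Col6a1, Col6a2 and Col6a3, had differences of 0.22 ± 0.12, 0.10 ± 0.11 and 0.18 ± 0.12. In mice 2 and 3 all 3 were above 0, at 0.37, 0.26 and 0.53 in mouse 2 and 0.63, 0.45 and 0.60 in mouse 3. In mouse 4 all 3 were below 0. Without denervated arrays 2 and 3 they differed by 0.06, -0.05 and 0.04. Col6a4 and Col6a5 had low means, with differences of -0.18 ± 0.22 and -0.12 ± 0.11.

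Vessel wall and macrophage markers had their largest differences in mice 2 and 3, as had Col6a1, Col6a2 and Col6a3. In type IV, Col4a2 differed most in mouse 3 and Col4a6 in mouse 2, but Col4a1 in mouse 1 and Col4a5 in mouse 5. The summed level of 8 pericyte and smooth muscle markers differed by 0.28, 0.78, 0.66, 0.17 and 0.16 in mice 1 to 5, and 7 of 8 had a higher mean, while Des was low. It ranged from 10.93 to 11.69 in the denervated and 10.77 to 10.91 in the contralateral incisors. The summed level of 8 endothelial markers differed by -0.11, 0.58, 0.51, -0.10 and -0.04, with 8 of 8 higher and a range of 7.59 to 8.39 in the denervated and 7.69 to 8.10 in the contralateral incisors. For 7 macrophage markers the values were 0.21, 0.82, 0.95, 0.20 and 0.33, with 7 of 7 higher and a range of 9.97 to 10.79 in the denervated and 9.74 to 9.98 in the contralateral incisors. For 6 Schwann cell markers, of which Sox10, S100b and Ugt8a had means below 2, they were -0.27, 2.32, 0.69, 0.05 and -0.19, with 5 of 6 higher and a range of 4.80 to 7.48 in the denervated and 4.85 to 5.34 in the contralateral incisors. The part of these cell types in the differences of types IV, VI, VIII, XVI and XVIII was not tested.

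**Figure D3:**
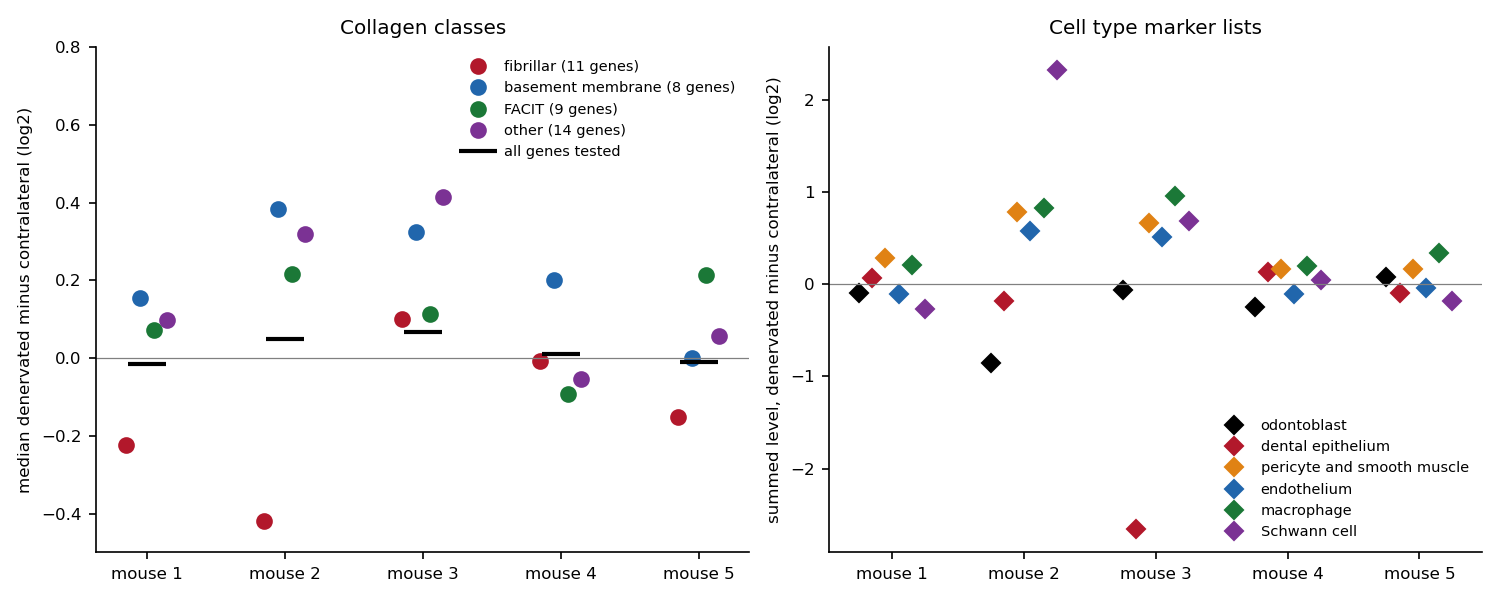
Left, median difference (log2) of each collagen class within each mouse, with black bars for the median of all 18193 genes. Right, difference in the summed level (log2) of 6 cell type marker lists within each mouse. Mice 2 and 3 carry the highest basement membrane medians and the highest endothelial, macrophage and smooth muscle values, mouse 2 the lowest fibrillar median and odontoblast value, and mouse 3 the lowest epithelial value.

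The transmembrane collagens span the cell membrane with their triple helix outside. Col23a1 had levels of 8.34, 8.25, 8.56, 8.21 and 7.44 in the denervated and 7.87, 7.70, 8.10, 8.08 and 7.02 in the contralateral incisors. Both incisors of mouse 5 were low, so the ranges overlapped while each denervated value exceeded its partner. The within-mouse differences were 0.47, 0.55, 0.47, 0.13 and 0.42, and the mean was 0.41 ± 0.24. The interval of -0.12 to 0.93 narrowed to 0.22 to 0.59 in the blocked fit, the smallest unadjusted p of the family there (0.00105, adjusted p 0.326 in limma). All 3 probe sets lay between 0.36 and 0.41, and the difference was 0.34 without both incisors of mice 2 and 3 and 0.22 without contralateral array 5.

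Col25a1, a neuronal transmembrane collagen needed for motor innervation of muscle, read 7.37, 7.51, 7.36, 7.09 and 7.04 in the denervated and 6.97, 7.01, 6.98, 7.19 and 6.50 in the contralateral arrays. Only denervated arrays 4 and 5 fell within the contralateral range. The means were 7.27 ± 0.20 against 6.93 ± 0.26 (SD, n = 5), a difference of 0.34 ± 0.13 with an interval of 0.05 to 0.64, or 0.10 to 0.58 in the blocked fit. Mouse 4, at -0.10, was the 1 mouse below 0. Without denervated arrays 2 and 3 it differed by 0.23. Col26a1, a small collagen of mesenchyme, read 6.28, 6.03, 6.66, 5.76 and 6.05 against 5.93, 5.61, 5.98, 5.64 and 6.00, higher in each mouse. Its difference was 0.32 ± 0.16, with intervals of -0.02 to 0.66 and, in the blocked fit, 0.09 to 0.56, and it was 0.20 without denervated array 3. Col13a1, a collagen of muscle-nerve junctions, had a mean of 1.48 and a difference of 0.15 ± 0.12.

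Col17a1, the hemidesmosome collagen that fastens epithelial cells to their basement membrane, stood apart in 1 array. Its levels were 7.79, 7.69, 5.84, 7.85 and 7.70 in the denervated and 7.84, 7.95, 7.76, 7.60 and 7.83 in the contralateral incisors. Denervated array 3 was -1.91 from its partner, and the other 4 mice lay between -0.27 and 0.25. The mean difference was -0.42 ± 0.33, or -0.04 without denervated array 3. The summed level of 10 dental epithelium markers differed by 0.07, -0.18, -2.66, 0.13 and -0.10 in mice 1 to 5, with 0 of 10 higher on average and a range of 11.67 to 14.40 in the denervated and 14.27 to 14.43 in the contralateral incisors. None of those markers had a mean below 2, and their part in the Col17a1 value was not tested. Col7a1, the collagen of anchoring fibrils under such epithelia, differed by -0.12 ± 0.11, with -0.59 in mouse 3 and 0.01 without denervated arrays 2 and 3.

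**Figure D4:**
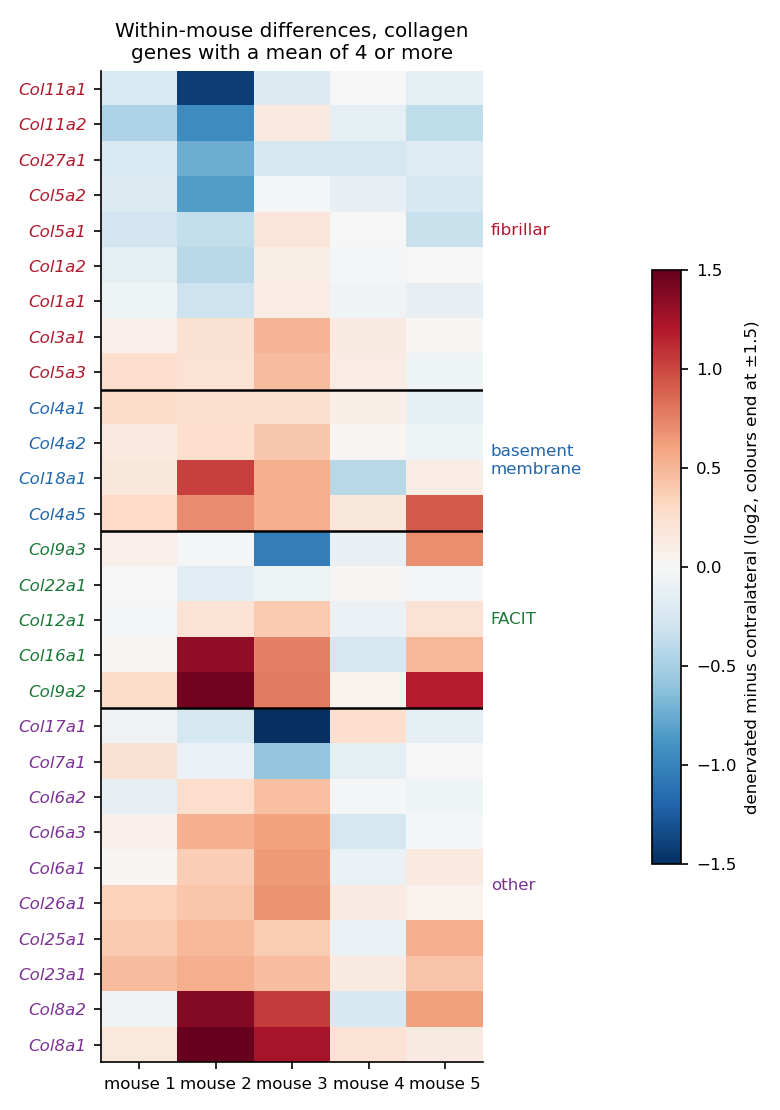
Within-mouse differences (log2, colour scale from blue, lower in the denervated incisor, to red, higher) of the 28 collagen genes with a mean of 4 or more, by class and then by mean difference. Mouse 2 shows low values of most fibrillar genes, except Col3a1 and Col5a3, and high values of Col8a1, Col8a2, Col9a2 and Col16a1. Mouse 3 shows a low Col17a1, and mouse 4 paler colours than mice 2 and 3.

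Genes that modify, secrete and crosslink collagen were taken from a list of 39, of which 35 were measured. None of these 35 and none of 10 measured collagen receptors, from a list of 11, passed limma's test over all genes. Among the processing genes 25 were lower and 10 higher on average, with a median of -0.07. The processing medians in mice 1 to 5 were -0.19, -0.29, 0.12, -0.02 and -0.08, lowest in mouse 2, where the summed odontoblast level also had its lowest value (-0.85). The part of the odontoblast markers in these differences was not tested. At an unadjusted p under 0.05 there were 4 lower and 1 higher without the block, where 2.11% and 4.1% of all genes were, and 6 lower and 3 higher in the blocked fit, where 2.93% and 6.99% were. Prolyl hydroxylation, which stabilises the triple helix, had 8 of 9 genes lower. P4ha1, a catalytic subunit of prolyl 4-hydroxylase, had 5.74 ± 0.34 against 6.18 ± 0.15 (SD, n = 5), a difference of -0.44 ± 0.15 with 1 of its 2 probe sets in this direction. Plod2, the lysyl hydroxylase of the collagen ends, had 9.49 ± 0.48 against 9.97 ± 0.13 and differed by -0.48 ± 0.20, lower in 5 of 5 mice, at -0.03, -1.02, -1.24, -0.01 and -0.12.

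Of 4 crosslinking enzymes, Lox and Loxl4 were lower in every mouse. Lox, the lysyl oxidase that starts covalent crosslinks, had levels of 10.81, 9.94, 11.12, 10.71 and 10.75 in the denervated and 11.10, 11.09, 11.25, 10.94 and 10.98 in the contralateral incisors. Denervated array 2 was lowest. The difference was -0.41 ± 0.18 (interval -0.80 to -0.01, or -0.75 to -0.06 in the blocked fit), and -0.22 without denervated array 2. Loxl4, a relative of Lox, differed by -0.72 ± 0.30, with mice at -0.72, -2.03, -0.04, -0.46 and -0.35. Loxl1, a relative needed for elastic fibres and named here after its values were seen, had the higher mean in the denervated incisors. It differed by 0.39 ± 0.21, higher in 4 of 5 mice, with an interval of -0.07 to 0.86, or 0.11 to 0.68 in the blocked fit, and by 0.05 without denervated arrays 2 and 3. Loxl3 differed by -0.01 ± 0.13.

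The chaperone and secretion genes had 8 of 9 lower. Serpinh1, which encodes the collagen chaperone HSP47, differed by -0.04 ± 0.11 and was above 0 without denervated array 2 or contralateral array 5. Tmem38b, an ion channel of the endoplasmic reticulum, differed by 0.28 ± 0.11, higher in 5 of 5 mice. Bmp1, the protease that removes the C-terminal propeptide, differed by -0.09 ± 0.11 and its enhancer Pcolce by -0.06 ± 0.15. Pcolce was above 0 without denervated array 2.

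Collagen receptors had 6 of 10 lower. The discoidin domain receptor genes Ddr1 and Ddr2 differed by -0.05 ± 0.15 and -0.09 ± 0.08. The integrin genes Itga1 and Itga2 had means of 2.32 and 2.01 and differed by 0.23 ± 0.18 and -0.26 ± 0.16. Lair1, an inhibitory receptor of leukocytes, and Gp6, the collagen receptor of platelets, had means of 1.79 and 0.78 and differed by 0.12 ± 0.09 and -0.16 ± 0.11.

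**Figure D5:**
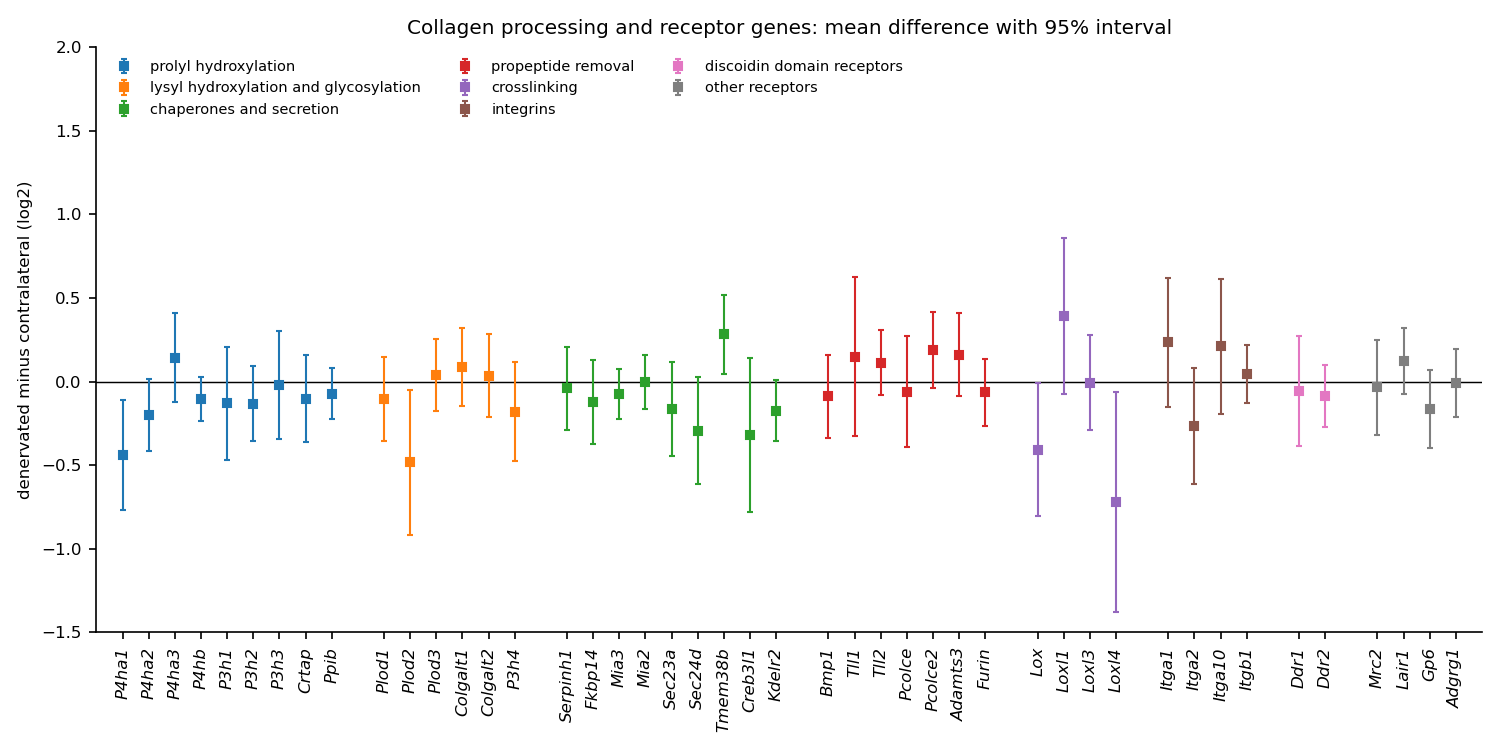
Denervated minus contralateral difference (log2, vertical axis) of the 45 measured collagen processing and receptor genes, by role, as the mean with limma's 95% interval of the fit without the mouse. P4ha1, Plod2, Lox and Loxl4 lie below 0 and Tmem38b above it with intervals that do not reach 0, and none of the genes passed the adjusted test.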

How the data were processed

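The deposited values are log2 expression levels per probe set. The submitters' processing notes name RMA, without a version, as the method. RMA is meant to bring arrays to a common distribution and can compress differences of very bright and very dim probes. The deposited array medians still ran from 1.48 to 1.54, and quantile normalization changed the split of higher and lower genes. Which further step gave values down to -0.16 is not given in the sources used here, and there are no detection calls. Of 45101 probe sets 64 controls were left out, and 34945 named 1 symbol. All 42 collagen symbols matched the RefSeq gene table by Entrez identifier.

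Denervated and contralateral arrays were compared with limma 3.58.1 in R 4.3.3 (lmFit and eBayes, two-sided), adjusted over 18193 genes by Benjamini-Hochberg with a threshold of 0.05. The SE of a difference is limma's, and intervals are at 95%. Same-numbered arrays were taken as 1 mouse: their deviations from the group means correlated between 0.18 and 0.57 over genes, against -0.41 to 0.22 in 20 other pairs. These ranges overlap, and 4 denervated arrays were closest to the contralateral array of their own number. The main fit has no mouse term, and the blocked fit adds 1 term per mouse. Other alternatives were 2 normalizations, 2 other choices of probe set, a filter, a floor, a variance trend, array weights, and arrays left out. Data were also simulated for 18193 genes, with normal noise, an assumed mouse share and shifts in a set of genes with a mean above 4. There the fit without the block recovered 46%, 86%, 92% and 98% of the altered genes at log2 shifts of 0.5, 1, 1.5 and 2. The adjustment depends on how many genes are shifted, so these rates do not hold for a single collagen gene. Nor do they cover members with a mean below 4.

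Per-array values are given for Col1a1, Col1a2, Col3a1 and for members with an unadjusted p under 0.05 in either fit, with 1 direction in all 5 mice at a mean of 4 or more, or with a difference over 1.5 in a mouse. Of the processing and receptor lists, the 4 genes with the smallest p in each and a set of 8 known genes are named. The array values of Lox and the mouse values of Plod2 and Loxl4 were chosen after they were seen. So were the values of the single marker genes Dspp, Dmp1, Ambn, Cnmd, Sox9, Hapln1 and the 5 tendon and ligament markers. The members, lists and alternatives were chosen with earlier results of these data known.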

Additional observations from a re-analysis of the deposited data

Results flagged for a closer look

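In groups of 5 arrays, the gap of the highest or lowest array to its neighbour as a share of the range was compared with Dixon's critical value at the 95% level. Among 112 groups of 5 values, from 56 genes on 2 sides, 3 exceeded it, where chance, at about 1 in 20 groups, would give 5.6. Col1a1 was at 12.98 in contralateral array 4, below the 13.08 to 13.10 of the other 4. Col24a1, a fibrillar collagen of bone, was at 3.06 in denervated array 2, below the 3.86 to 4.06 of the others. Col17a1, the hemidesmosome collagen, was at 5.84 in denervated array 3, below the 7.69 to 7.85 of the others.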

How the results depend on the processing

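The count of genes at an unadjusted p under 0.05, 1129 of 18193, was 1805 with the mouse as a replicate block. It was 559 without both incisors of mice 2 and 3. Among genes with a mean of 4 or more it was 535 of the 7919 tested, a smaller set of genes. The count of collagen genes at that p, 7, was 11 with the replicate block and 11 with the block without mouse 3. It was 4 without denervated arrays 2 and 3 and 0 without both incisors of mice 2 and 3. With each array left out in turn it was between 4 and 11. The count of all genes was 1336 with the block without mouse 3 and 856 without denervated arrays 2 and 3. With each array left out in turn it was between 793 and 1605. Leaving out whole mice was chosen after seeing the data. The block, which rests on the pairing of the arrays by mouse, brought no gene below an adjusted p of 0.05, and no setting did so for the 56 genes named by rule (lowest adjusted p 0.326). Of 1094 values of those genes under other settings, 1037 kept their direction and 57, in 20 genes, took the other sign. With the mean of all probe sets these were Col1a2 (0.0485), Col19a1 (-0.0068), Col20a1 (-0.0168) and Col22a1 (0.0011). With the probe set of largest variance they were Col1a2 (0.40), Col12a1 (-0.0531), Col19a1 (-0.103) and Col22a1 (0.0449). Quantile normalization turned Col4a4 (0.0043), Col14a1 (-0.0506) and Col10a1 (0.0092), a common median Col14a1 (-0.0224) and Col19a1 (-0.0059), array weights Col9a3 (0.0012) and Ddr1 (0.0118), and a floor of 2 Col6a4 (0.0382). Without denervated arrays 2 and 3 the turned values were 0.0386 for Col2a1, -0.0457 for Col5a3, -0.0496 for Col18a1, 0.0421 for Col4a4, -0.0669 for Col14a1, -0.0442 for Col19a1, 0.0059 for Col22a1, 0.245 for Col9a3, -0.0480 for Col6a2, 0.133 for Col6a4, 0.0088 for Col7a1, -0.0180 for Itga1, 0.0315 for Serpinh1 and 0.126 for Ddr1. Leaving out single arrays gave -0.238 to 0.0090 for Col2a1, -0.0764 to 0.0074 for Col4a3, -0.0591 to 0.0733 for Col4a4, -0.139 to 0.140 for Col14a1, -0.0206 to 0.0717 for Col19a1, -0.0059 to 0.215 for Col20a1, -0.108 to 0.0153 for Col22a1, -0.285 to 0.0967 for Col9a3, -0.0448 to 0.0197 for Col10a1, -0.114 to 0.0503 for Serpinh1, -0.165 to 0.0335 for Pcolce and -0.121 to 0.0573 for Ddr1. Except where a setting changes the samples or the probe set by construction, the cause was not tested. The 5 arrays a side limit the precision, and low means and the level of Col1a1 at the top of the scale limit which differences can be read.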
